A study of Mus musculus with 4 samples.

Results

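The genes described here are 10 of the 53379 genes counted in each library, those that encode enzymes and binding proteins of N6-adenine methylation. They were chosen by name, with the levels of *Mettl4* in this same comparison already known, and were found by the gene symbol attached to each gene identifier. Their values are therefore given as a description: no p-value is printed for them, and their calls are only counted beside the share of all tested genes. The writers are *Mettl4*, *Mettl3*, *Mettl14*, *Wtap* and *N6amt1*, the erasers are *Alkbh1*, *Alkbh5* and *Fto*, and the readers are *Ythdf2* and *Ythdc1*.

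RNA was sequenced from DKO741, a single Terc-/- line of mouse embryonic stem cells made from E14 cells by targeting both alleles of the telomerase RNA gene, so that the control cells lack telomerase too. Pre-ALT cells at population doubling 100 (PD100) were compared with post-ALT cells at population doubling 800 (PD800), which maintain their telomeres without telomerase (alternative lengthening of telomeres, ALT), with 2 libraries of each. The cells were kept on mouse embryonic fibroblast feeders and grown without feeders for experiments. The labels also call the 2 time points passages 100 and 800, and give total RNA where the study speaks of mRNA.

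N6-methyladenosine (m6A) is an internal modification of mRNA. It is written by a complex around the METTL3 and METTL14 heterodimer, removed by FTO and ALKBH5, and read by YTH-domain proteins that act on splicing, export, decay and chromatin. In embryonic stem cells it is known for its part in the exit from the naive pluripotent state. METTL4 is a separate methyltransferase of the same family, known to act on the U2 small nuclear RNA, and METTL4, N6AMT1 and ALKBH1 have also been described as enzymes of N6-methyladenine in DNA, a role that is debated.

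*Mettl4* (ENSMUSG00000055660.8) lies on the minus strand at chr17:94722590-94750019 of GRCm38 (mm10), 128 kb from the last annotated base of the chromosome. Its promoter window from RefSeq (GRCm38.p6, chr17:94749970-94750269, minus strand, 250 bases before the start and 50 after it) is shown because the starts of 2 genes with low counts in PD800 cells lie inside it. *Mettl4* starts at base 251 of the window, and the transcribed pseudogene *2700099C18Rik*, read from the opposite strand, starts at the place of base 170, 81 bases away. Capitals mark CpG dinucleotides (CG).

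Mettl4 promoter: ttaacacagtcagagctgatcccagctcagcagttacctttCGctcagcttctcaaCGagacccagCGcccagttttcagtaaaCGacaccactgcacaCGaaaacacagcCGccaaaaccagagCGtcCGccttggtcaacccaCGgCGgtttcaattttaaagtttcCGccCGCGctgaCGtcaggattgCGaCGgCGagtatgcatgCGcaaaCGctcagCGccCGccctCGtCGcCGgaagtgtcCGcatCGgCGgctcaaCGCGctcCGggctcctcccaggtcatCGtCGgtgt

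The window holds 32 CpG in 300 bases and is 59.3% G or C. Of 32851 RefSeq promoter windows of this length, 90.5% hold fewer CpG, and the median is 7. Windows were found for 9 of the 10 genes, all but *Mettl14*, and those of the other 8 hold between 11 CpG in *N6amt1* and 48 in one of the 3 windows of *Wtap*. The palindrome TGACGTCA, the cAMP response element, begins 72 bases before the *Mettl4* start, between both starts, and is found on either strand in 1.79% of all windows and in no other window of the 9 genes. The ETS-type sequence CCGGAAGT, in this orientation or as its reverse complement ACTTCCGG, is found in 3.89% of all windows, and among these genes in those of *Mettl4* and *Mettl3*. Both sequences were picked after the window had been read, and a match describes the letters only.

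The files hold an expected count, the estimated number of read pairs from each gene. The counts summed to between 32454121 and 38492149 in the 4 libraries. Levels are given as CPM, counts scaled to library size with edgeR's TMM factors, or as TPM, which also divides by transcript length and is used to set genes beside each other. A floor of 3 counts, under which a level is not told from 0, equals 0.0743 to 0.0934 CPM, and it accounts for counting error alone. The targeted gene *Terc* had 1 count in PD100 replicate 1 and 0 in the other 3 libraries. The summed level of 8 embryonic stem cell markers was 1691 and 2042 CPM at PD100 and 3346 and 3467 CPM in PD800 cells. All 8 had positive log2 fold changes, and 3 of them rose by edgeR's test at an adjusted p below 0.01 with a fold above 2. The summed markers of other cells were lower in PD800 cells: 8 fibroblast markers came to 47.0 and 69.4 against 13.0 and 13.9 CPM (4 of 7 tested fell, *Lum* at 0 in 3 libraries and *Dcn* at 0 in 1, with 6 negative log2 fold changes and 1 positive, *Twist1*), and 6 primitive endoderm markers to 141 and 121 against 10.4 and 10.8 CPM (6 of 6 fell, none at 0). Their part in the values of the N6-adenine genes was not tested.

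*Mettl4* had 870 and 752 expected counts in the PD100 libraries against 4 in each PD800 library, both just above the floor. On the CPM scale, these are 21.6 and 22.5 CPM at PD100 and 0.111 and 0.124 CPM at PD800. Every PD800 value lies far below both PD100 values, and the replicates of each group lie close together. The exact 95% Poisson interval of a count of 4 runs from 1.09 to 10.2 counts, or from 0.0303 to 0.285 CPM in PD800 replicate 1 and from 0.0339 to 0.319 CPM in replicate 2, so that the size of the fold change is known less well than its direction. The log2 fold change was -7.51 (standard error, SE, 0.17, 2 libraries against 2). The SE given for edgeR's fits is the size of the log2 fold change divided by the square root of the test's F statistic. Here it is below the 0.51 that counting alone gives for 1622 against 8 counts. DESeq2's own SE was 0.54, and the SE from edgeR's F was 0.32 and 0.31 without PD800 replicate 1 or 2. In bulk RNA, fewer cells that express a gene and less RNA of it per cell cannot be told apart. A pseudogene named after it, *Mettl4-ps1*, had 7.19 and 5.29 counts at PD100 and 4 and 4.14 at PD800, and reads of both genes could be divided wrongly between them.

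**Figure D1:**
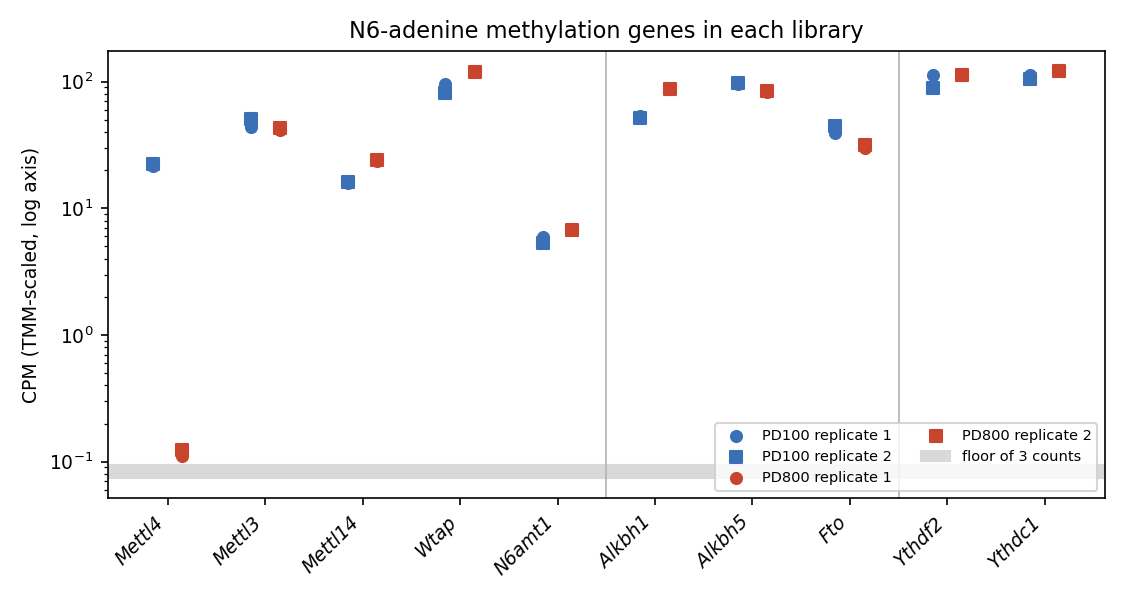
Level of each of the 10 genes in each library, in CPM on a log axis, in the order writers, erasers, readers (grey lines divide them). Circles are replicates 1 and squares replicates 2, blue for PD100 and red for PD800, and the grey band is the floor of 3 counts (0.0743 to 0.0934 CPM): *Mettl4* stands at 21.6 and 22.5 CPM in PD100 and at 0.111 and 0.124 CPM in PD800, while the next largest difference is the 1.67-fold one of *Alkbh1*.

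The catalytic subunit of the m6A writer, *Mettl3* (chr14:52294841-52305128), had 43.6 and 50.4 CPM at PD100 and 41.4 and 43.3 CPM in PD800 cells. Its PD800 values lie below both PD100 values, the difference between the means is smaller than that between the PD100 replicates, and the log2 fold change was -0.15 (SE 0.10). The PD100 library left out moved it, to -0.25 without replicate 1 and -0.0651 without replicate 2. On the TPM scale *Mettl3* had 23.7 and 22.1 TPM at PD100 and 17.7 and 16.85 TPM at PD800, groups farther apart than either pair, and its difference was -0.39 on log2(TPM + 1) and -0.40 on log2(TPM + 0.1). Its partner *Mettl14* (chr3:123368297-123386108), which holds the RNA substrate in the heterodimer, had 16.0 and 16.3 CPM at PD100 and 23.5 and 24.0 CPM in PD800 cells. The 2 pairs of *Mettl14* values are far apart relative to their spread, with means of 16.1 ± 0.205 and 23.7 ± 0.383 CPM (SD, n = 2; log2 fold change 0.56, SE 0.08). The log2 fold changes of the partners had opposite signs, and the difference between them was not tested. *Mettl3* overlaps *Tox4* on the opposite strand, and whether the counting used strand is not given in the sources used here. If it did not, reads of the shared part were divided between both genes without that information. The ratio of *Mettl3* to *Mettl14* in TPM was 5.68 and 5.71 in the PD100 libraries against 3.60 and 3.36 in the PD800 libraries.

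*Wtap* (chr17:12966796-12994169), the adaptor that brings the heterodimer to nuclear speckles, had 95.8 and 81.2 CPM at PD100 and 121 and 119 CPM in PD800 cells. The PD800 values are the higher ones, and the log2 fold change was 0.44 (SE 0.10). On the TPM scale its groups overlapped, with 37.2 and 29.1 TPM at PD100 and 38.15 and 35.8 TPM at PD800 (0.16 on log2(TPM + 1) and 0.17 on log2(TPM + 0.1)). *Wtap* is on the same chromosome as *Mettl4* but 81.9 Mb from its last annotated base. *N6amt1* (chr16:87354185-87368742), which with TRMT112 methylates a translation release factor, had the lowest TPM of the 10 genes at PD100. Its values were 5.95 and 5.36 CPM at PD100 and 6.87 and 6.75 CPM in PD800 cells (log2 fold change 0.27, SE 0.12), and its TPM groups overlapped (2.40 and 1.99 against 2.39 and 2.17). The log2 fold change of *N6amt1* was 0.35 without PD100 replicate 1 and 0.17 without PD100 replicate 2, and 0.0400 and 0.0567 on log2(TPM + 1) and log2(TPM + 0.1).

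Among the erasers, *Alkbh1* (chr12:87425840-87444017), a dioxygenase that acts on tRNA and mitochondrial RNA and has been proposed as a DNA demethylase, had 53.8 and 52.0 CPM at PD100 and 89.4 and 87.3 CPM in PD800 cells. The groups are far apart, at 52.9 ± 1.31 and 88.4 ± 1.46 CPM (SD, n = 2; log2 fold change 0.74, SE 0.07), and no other of the 10 genes had a larger positive value. *Alkbh1* overlaps *Slirp* on the opposite strand, and the same limit on strand holds for the part they share. *Slirp* had 2058 and 905 counts at PD100 and 2317 and 1779 in PD800 cells, against 2172 and 1734 and then 3213 and 2806 counts of *Alkbh1*.

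*Fto* (chr8:91313525-91668439), a demethylase of m6A and of the methylated cap-adjacent adenosine, had 39.6 and 44.8 CPM at PD100 and 30.0 and 31.6 CPM in PD800 cells. Both PD800 values lie below both PD100 values, with means of 42.2 ± 3.69 and 30.8 ± 1.09 CPM (SD, n = 2; log2 fold change -0.45, SE 0.09). Several short or antisense annotations lie within *Fto*, the highest of them at 243 counts in a library against at least 1014 counts of *Fto*. *Alkbh5* (chr11:60536381-60558512), the nuclear m6A demethylase, had 96.0 and 96.8 CPM at PD100 and 82.5 and 85.0 CPM in PD800 cells (log2 fold change -0.20, SE 0.07). Its groups did not overlap, and on the TPM scale they were farther apart, at 13.9 and 12.5 TPM against 9.71 and 9.37 TPM, with -0.43 on log2(TPM + 1) and -0.46 on log2(TPM + 0.1). *Fto* had -0.60 and -0.68 on these scales. The ratios between erasers also lay apart: *Alkbh1* was 2.64 and 2.503 times *Fto* in TPM in the PD100 libraries against 5.64 and 5.13 times in the PD800 libraries. *Alkbh5* to *Fto*, the pair that acts on m6A in mRNA, was 1.62 and 1.40 against 1.79 and 1.71 in TPM.

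Both readers lay close to 0. *Ythdf2* (chr4:132184912-132212303), which recruits deadenylases to methylated mRNA, had 112 and 88.4 CPM at PD100 and 112 in each of the PD800 libraries, so that the groups overlapped. Its log2 fold change of 0.16 (SE 0.12) was -0.0733 on log2(TPM + 1), -0.0758 on log2(TPM + 0.1) and -0.0304 without PD100 replicate 2, against 0.34 without PD100 replicate 1. *Ythdc1* (chr5:86804221-86836659), the nuclear reader, had 113 and 105 CPM at PD100 and 121 and 120 CPM in PD800 cells. Its log2 fold change was 0.15 (SE 0.07), and turned to -0.0291 and -0.0298 on the same TPM scales. It was 0.20 without PD100 replicate 1 and 0.0789 without PD100 replicate 2. The TPM scales themselves shift the median of all tested genes to -0.12 with a pseudocount of 1 and to -0.21 with 0.1, against 0.01 in CPM.

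Set side by side per length, the order of levels in PD100 cells began with *Wtap* (29.1 to 37.2 TPM), whose range overlapped that of *Ythdc1* (24.7 to 30.2 TPM). *Mettl3*, *Alkbh1* and *Ythdf2* followed with mean levels between 22.475 and 22.9 TPM, and the ranges of neighbours in this order overlapped. *Alkbh5*, *Fto*, *Mettl4*, *Mettl14* and *N6amt1* came after them, each apart from the next. *Mettl4*, at 8.44 and 7.92 TPM in PD100 cells, was therefore next to *Fto* (8.58 and 8.97 TPM) and above *Mettl14* (4.17 and 3.88 TPM). In PD800 cells *Alkbh1* stood second at 28.2 and 30.55 TPM, and *Mettl4* stood last at 0.04 TPM in each library, below *N6amt1* at 2.39 and 2.17 TPM. No ranges of neighbours overlapped in PD800 cells.

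All 10 genes passed the expression filter, as did 19148 genes in all. By an adjusted p below 0.01 with a fold above 2, 1 of the 10 genes (*Mettl4*) was called, where 15.1% of all tested genes were (6.28% higher and 8.81% lower). By the adjusted p alone, 4 of 10 were called (*Mettl14* and *Alkbh1* higher, *Mettl4* and *Fto* lower), where 28.5% of all tested genes were (13.1% higher and 15.4% lower). In CPM, the groups of 9 of the 10 genes did not overlap, 5 of them higher and 4 lower in PD800 cells, where those of 73.7% of all tested genes did not (37.4% higher and 36.3% lower). In TPM the number was 6 of 10, where it was 70.3% of all (21.3% higher and 49% lower). These values chose the genes in part, and nothing is read from the counts. The median log2 fold change of the 10 genes was 0.15, against 0.01 for all tested genes, and apart from *Mettl4* none exceeded 0.74 in size. With 1 library left out, its group holds a lone library that is assumed to vary like the pair of the other group, and the PD100 pair varied more than the PD800 pair. Without PD800 replicate 1 or 2, *Mettl14* (0.58 and 0.55) and *Fto* (-0.41 and -0.48) were not called. Their log2 fold changes moved little while the SE rose, from 0.08 to 0.15 in both fits for *Mettl14* and from 0.09 to 0.17 and 0.18 for *Fto*. Without PD100 replicate 1, *Mettl3* (-0.25), *Wtap* (0.57) and *Ythdf2* (0.34) were called too. *Wtap* was also called without PD100 replicate 2 (0.30), with DESeq2 (0.43), with no filter on low counts (0.44) and with the replicate block (0.45). On log2(TPM + 1) and log2(TPM + 0.1), *Alkbh1* had 0.36 and 0.38 and *Mettl14* 0.25 and 0.30, and neither was called. *Fto* was not called on log2(TPM + 1) (-0.60) or with upper-quartile normalisation (-0.44), and was called on log2(TPM + 0.1) (-0.68).

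RSEM also gives each gene a length, the mean of its transcripts weighted by their abundance, which moves when the mix of isoforms does. The choice of genes did not use it. *Mettl4* has 1 annotated transcript and a fixed length of 2150 bases. *Alkbh1* was listed at 2010 and 1777 bases at PD100 and at 2046 and 2047 bases in PD800 cells, a difference set mostly by PD100 replicate 2. *Alkbh5* was longer in PD800 cells (5630 and 5677 against 5538 and 5593 bases), as was *Wtap* (2201 and 2189 against 2166 and 2115 bases), and *Ythdc1* was shorter (2965 and 3002 against 3059 and 3141 bases). The groups of these 4 genes did not overlap, where those of 34.6% of the 13295 tested genes with several transcripts did not.

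The surroundings of each gene were described by the median log2 fold change of the tested genes within 2.5 Mb on each side, the gene itself left out. Around *Mettl4* this was -6.16 over 4 genes, all 4 of them called lower, or -5.30 with 2 of them set at the bound that the floor allows. Like *Mettl4*, these 4 passed the expression filter only through their PD100 libraries, so that a call could only be lower. *Mettl14*, *Alkbh1* and *Fto* also had a neighbourhood median of their own sign: 0.72 over 36 genes around *Mettl14*, 0.56 over 56 genes around *Alkbh1*, and -0.76 over 36 genes around *Fto*. Of the tested genes around *Fto*, 9 were called lower and 0 higher with a fold over 2, and around *Mettl14* 9 were called higher and 1 lower, where 6.28% of all tested genes were higher and 8.81% lower. Around *Alkbh1* the calls went both ways, with 6 higher and 11 lower.

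*Mettl3* (-0.27 over 63 genes), *Alkbh5* (-0.39 over 109), *Ythdf2* (0.04 over 103) and *Ythdc1* (0.15 over 16) also shared the sign of their neighbourhood. *Wtap* (-0.11 over 30 genes) and *N6amt1* (-0.29 over 12) did not: both were higher in PD800 cells amid a negative median. That makes 8 of 10 genes with the sign of their neighbourhood, where 64.8% of the 19130 tested genes with a tested neighbour had it. The window mattered for some of these, since the median was -0.0087 around *Mettl3* within 1 Mb, 0.14 around *Wtap* within 5 Mb and -0.18 around *Ythdc1* within 5 Mb.

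**Figure D2:**
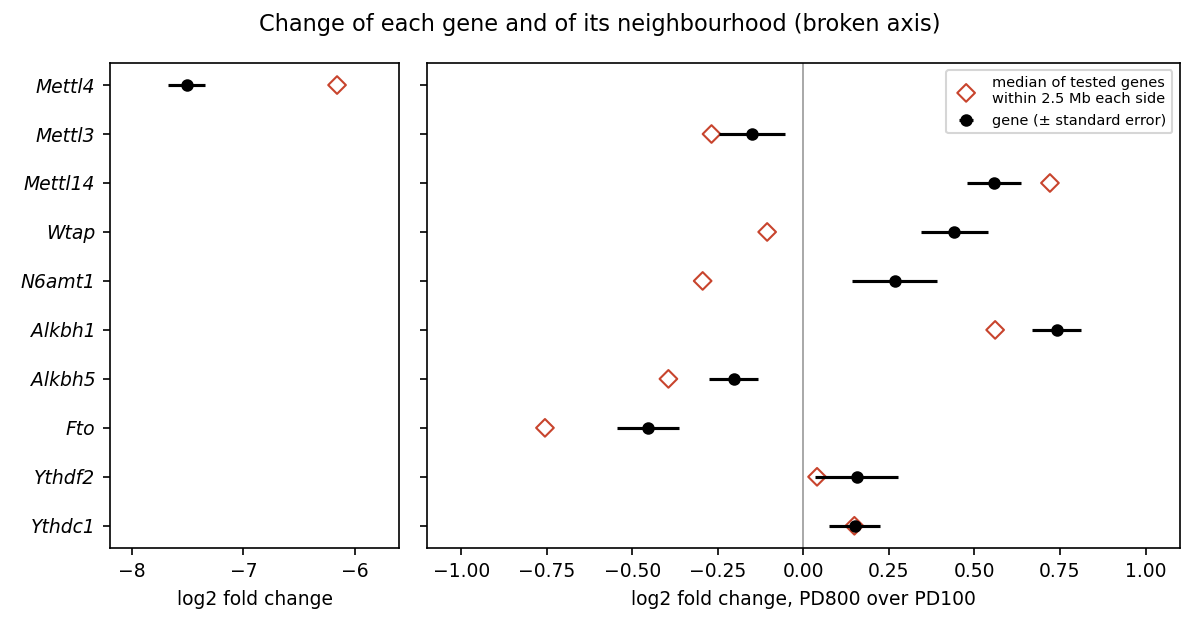
Change of the 10 genes from PD100 to PD800 as log2 fold change (black points, bars are standard errors from 2 libraries against 2) and the median of the tested genes within 2.5 Mb on each side (open diamonds), on a horizontal axis broken between *Mettl4*, whose bar (0.17) is shorter than counting alone gives (0.51), and the rest. The diamond lies on the same side of 0 as the gene for 8 genes and on the opposite side for *Wtap* and *N6amt1*, where 64.8% of all tested genes with a neighbour share its side.

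Nearest to *Mettl4*, *2700099C18Rik*, whose reads could be shared with a parent gene, had 286 and 247 counts at PD100 and 2 and 6 in PD800 cells. It fell by 5.90 as a log2 fold change (SE 0.34). *Gm1976*, 9.93 kb beyond *Mettl4* towards the chromosome end, had 151 and 129 counts against 1 and 0, a level at least 43.0-fold lower at PD800. *Gm26734*, 84.9 kb away, had 12 and 10 counts against 0 and 0 and was at least 3.38-fold lower. *Gm20939*, a lincRNA gene 115 kb away, had 527 and 347 counts against 9 and 13, and fell by 5.17 (SE 0.25). No p-value is printed for these 4 genes, since they passed the expression filter through PD100 alone and could only be called lower. For *2700099C18Rik* and *Gm20939* too, counting alone gives a larger SE, 0.51 and 0.31. Of the 7 genes annotated beyond *Mettl4*, the 5 with any count summed to 977 and 737 counts at PD100 and to 12 and 19 in PD800 cells.

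On the other side, the nearest tested gene is 3485 kb away. Of the 8 annotated genes in between, 1 had any count, *Adcyap1*, with 5 and 4 counts at PD100 and 0 in both PD800 libraries. *Gm6741*, that nearest tested gene and a processed pseudogene that could share reads with its parent, had 140 and 124 counts at PD100 and 230 and 107 at PD800, groups that overlapped (log2 fold change 0.44, SE 0.31, adjusted p = 0.286 by edgeR's test). *Gm10184*, 4812 kb away, had 1495 and 1341 counts against 2204 and 2239. Its expected counts are not whole numbers, so that some of its reads were divided with other genes. It rose by 0.76 (SE 0.10, adjusted p = 0.00156 by edgeR's test), less than 2-fold. The low PD800 values of *Mettl4* and the 4 tested genes beyond it were not seen in *Gm6741* and *Gm10184*. Both may hold reads of other loci, so that a local change in them could go unseen. Between 5 and 10 Mb away the median of 26 tested genes was -0.90, with 8 called lower and 0 higher by edgeR's test with a fold above 2 (8.81% and 6.28% of all tested genes), and 16 lower and 0 higher by adjusted p alone (15.4% and 13.1% of all).

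**Figure D3:**
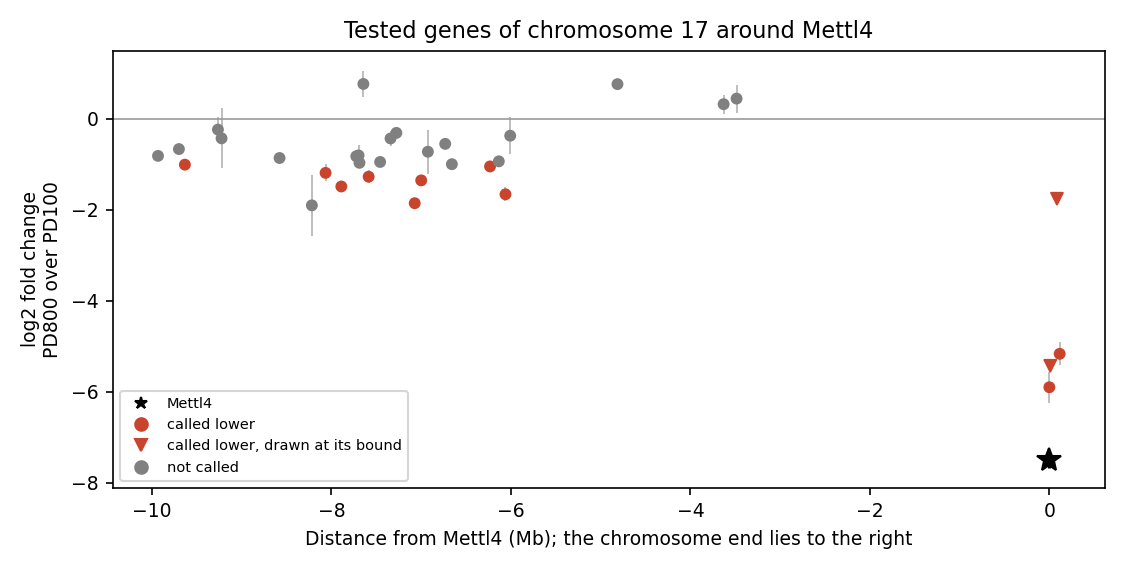
Change from PD100 to PD800, as log2 fold change, of every tested gene of chromosome 17 within 10 Mb of *Mettl4* (star), by distance in Mb, with the chromosome end to the right. Bars are standard errors derived from edgeR's F statistic, which for *Mettl4*, *2700099C18Rik* and *Gm20939* lie below the counting error. Triangles stand at the bound of *Gm1976* and *Gm26734*, and red marks genes called lower. The 4 genes beyond *Mettl4* are all called lower, while no tested gene on the left within 5 Mb is. These 4 passed the expression filter through PD100 alone, so that only a lower call was open to them.

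By the smallest distance in log2(TPM + 0.1) over the 4 libraries, the genes with levels most like *Mettl4* were *Fxyd3* (0.763), *2700099C18Rik* (0.930), *Hs3st1* (1.03), *Sox17* (1.11) and *S100g* (1.22), and 3 of the 5 were also nearest with a pseudocount of 1. *Fxyd3* had 7.75 and 9.15 TPM at PD100 and 0.13 and 0.03 TPM in PD800 cells. Its PD800 counts of 2 and 1, and those of *S100g* of 1 and 0, lie under the floor, so that their place in this order is uncertain. *Sox17*, a transcription factor of the primitive endoderm and 1 of the 6 markers above, had 9.36 and 9.56 TPM against 0.16 and 0.11 TPM. Of these 5 genes, 1 lies next to *Mettl4*, and the other 4 are on chromosomes 7, 5, 1 and X.

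The rest of the pathway was read from 5 lists of 33 genes, all of which passed the expression filter. The lists were chosen with earlier results of these data known. Most genes named are the highest or lowest of their list, picked by these same values, so that their p-values only describe them. By adjusted p below 0.01 (the quasi-likelihood test of edgeR after Benjamini-Hochberg correction), 4 of the 33 rose (13.1% of all tested genes did), 5 fell (15.4% of all) and 24 did not pass. Of the 9, 1 also passed the fold threshold. The median log2 fold change of the 33 genes was 0.04, against 0.01 for all tested genes. The count moved with the pair that gave the spread: without PD800 replicate 1 or 2, where the spread came from the PD100 pair, 0 rose by edgeR's test (5 or 7 at an unadjusted p under 0.05) and 3 or 4 fell, and without PD100 replicate 1 or 2, where it came from the PD800 pair, 9 or 6 rose and 10 or 8 fell. DESeq2 had 6 higher and 6 lower. With limma on either TPM scale 0 rose, with 2 at an unadjusted p under 0.05, and 5 fell.

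Of the 5 other subunits of the m6A writer complex, *Rbm15*, an RNA-binding subunit that directs the complex to its targets, had 91.4 and 90.7 CPM at PD100 and 126 and 125 CPM in PD800 cells. It rose by 0.46 (SE 0.07, adjusted p = 0.00306 by edgeR's test). The other 4 did not pass, down to *Zc3h13*, which anchors the complex in the nucleus, at -0.15 (adjusted p = 0.241 by edgeR's test). The median of the 5 was 0.20.

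Among 6 other methyltransferases and their partners was *Mettl16*, which methylates the U6 small nuclear RNA and the *Mat2a* transcript. It had 119 and 141 CPM at PD100 and 71.0 and 74.4 CPM in PD800 cells. It fell by 0.84 (SE 0.10, adjusted p = 0.00141 by edgeR's test). *Pcif1*, the writer of the cap-adjacent mark that FTO removes, rose by 0.47 (SE 0.09, adjusted p = 0.00835 by edgeR's test). The partner of N6AMT1, *Trmt112*, named here after its values were seen, had 41.1 and 51.4 CPM at PD100 and 42.3 and 46.4 CPM in PD800 cells, groups that overlapped. Of 6 other AlkB dioxygenases, relatives of *Alkbh1* and *Alkbh5*, 1 rose and 0 fell by edgeR's test (13.1% and 15.4% of all tested genes). The numbers were 3 and 0 at an unadjusted p under 0.05 and 2 and 0 by DESeq2. The gene that rose was *Alkbh4*, named after its values were seen (0.51, adjusted p = 0.00651 by edgeR's test). *Alkbh7*, highest at 0.75 (adjusted p = 0.0360), and *Alkbh2*, a DNA repair enzyme and lowest at -0.31 (adjusted p = 0.115, both by edgeR's test), did not pass.

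Of 9 other m6A binding proteins, 2 fell and 0 rose by edgeR's test (15.4% and 13.1% of all tested genes). The numbers were 4 and 3 at an unadjusted p under 0.05, and 3 were lower and 1 higher by DESeq2. *Igf2bp3*, which stabilises its target mRNAs, had 49.6 and 48.0 CPM at PD100 and 22.7 and 23.5 CPM in PD800 cells, and fell by 1.08 (SE 0.08, adjusted p = 0.000209 by edgeR's test). *Ythdf1*, the close paralog of *Ythdf2*, named after its values were seen, had 79.6 and 76.8 CPM at PD100 and 38.7 and 39.7 CPM in PD800 cells. It fell by 0.997 (SE 0.07, adjusted p = 0.000246 by edgeR's test), just short of the fold threshold, and the third paralog *Ythdf3* had 0.37 (adjusted p = 0.0171 by edgeR's test). The 3 cytoplasmic YTHDF genes therefore had log2 fold changes of -0.997, 0.16 and 0.37, and the differences between them were not tested.

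The methyl donor of the methyltransferases is S-adenosylmethionine. Of 7 further genes listed for its cycle, 1 rose and 2 fell (13.1% and 15.4% of all tested genes). *Mtr*, methionine synthase, rose by 0.47 (adjusted p = 0.00318 by edgeR's test). *Amd1*, which diverts S-adenosylmethionine to polyamine synthesis, had 189 and 208 CPM at PD100 and 108 in each PD800 library, and fell by 0.88 (SE 0.08, adjusted p = 0.000505 by edgeR's test). The other gene that fell was *Ahcy*, named after its values were seen, which clears the S-adenosylhomocysteine left by methylation. It had 181 and 230 CPM at PD100 and 122 in each PD800 library.

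**Figure D4:**
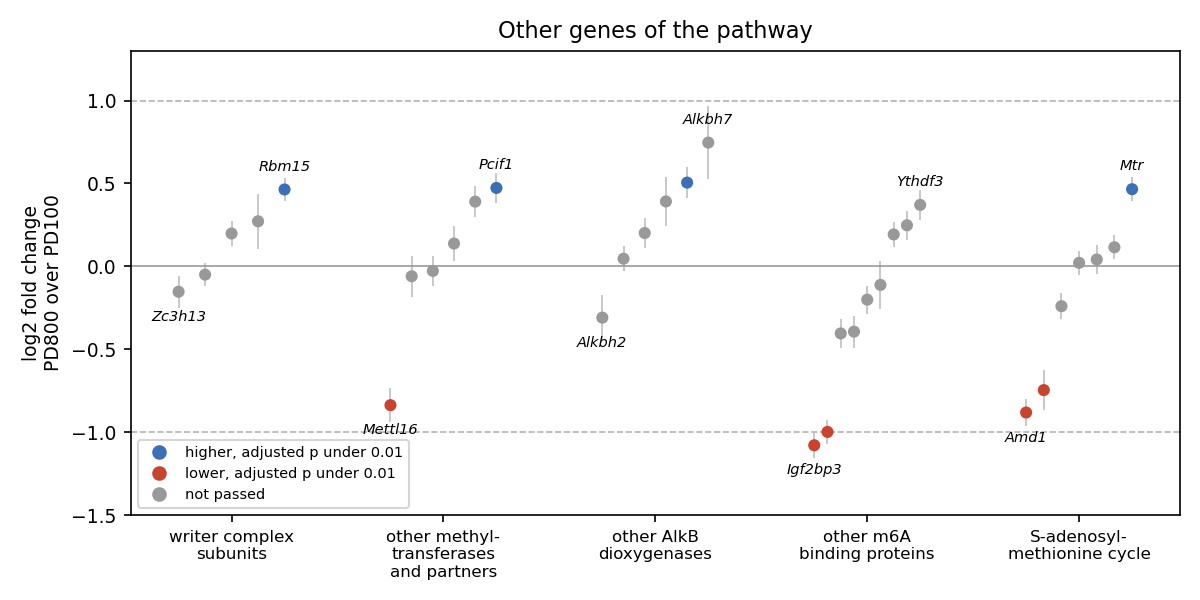
Change from PD100 to PD800, as log2 fold change, of the 33 other genes of the pathway in 5 lists, with standard errors from 2 libraries against 2, blue where a gene rose and red where it fell at an adjusted p under 0.01 (edgeR), and grey where it did not pass. Dashed lines mark a 2-fold difference, the highest and lowest gene of each list is named, and *Igf2bp3* at -1.08 is the one coloured gene past a dashed line.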

How the data were processed

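Paired-end reads of 4 libraries were aligned by the authors to mm10 with STAR 2.5.3a and counted with RSEM 1.3.0, per the labels and methods. The annotation release and the strand setting are not given in the sources used here. The authors deposited an expected count per gene, in which reads that align to several genes are divided, TPM values, scaled to gene length and library total, and a length per gene. The 10 genes and the lists were chosen with earlier results of these data known. Groups follow the population doubling each label gives, and the methods call the libraries of a group biological duplicates.

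Expected counts were rounded and tested over all genes with edgeR 4.0.16 under R 4.3.3 (its expression filter at a minimum count of 10, TMM, quasi-likelihood test, Benjamini-Hochberg correction). With 2 libraries against 2, the smallest p of an exact two-sided permutation test is 0.333, and p-values rest on edgeR's estimate of the spread. The SE was derived from this test, as the size of the log2 fold change over the square root of the F statistic. The total was 32454121 to 38492149 counts. Counts varied more than sampling alone gives (chi-square per degree of freedom 64.6 between the PD100 and 9.89 between the PD800 libraries). Where both PD800 libraries held at most 3 counts, the fold is the PD100 mean CPM over the mean PD800 floor, a lower bound. Positions came from GENCODE M21 (GRCm38), in which 53274 of 53379 identifiers were found, and promoter windows from RefSeq.

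The alternatives were DESeq2 1.42.0, its size factors, upper-quartile normalisation, other filters, a replicate block, limma 3.58.1 on log2(TPM + 1) and log2(TPM + 0.1), a scale that understates changes of low genes, an adjusted p under 0.05 alone, other windows, and each library left out. The procedure was tested on simulated data. Genes named are the 10, the highest and lowest of each list and any called in it with a fold over 2, the 5 most like *Mettl4* in level, up to 4 tested genes on each side of it, and *Terc*. A result under this rule is not reported here. Others, among them overlapping genes, *Mettl4-ps1*, *Adcyap1* and the markers at 0, were named after their values were seen. Proteins and genomic copy number were not analysed here.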

Additional observations from a re-analysis of the deposited data

How the results depend on the processing

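Of 119 alternative values of the 10 genes' log2 fold changes, 97 kept their direction and side of an adjusted p of 0.01, 7 came to pass it, 10 no longer passed and 5 reversed: *Ythdf2* to -0.0733 and -0.0758 on log2(TPM + 1) and log2(TPM + 0.1) and to -0.0304 without PD100 replicate 2 (0.344 without PD100 replicate 1), and *Ythdc1* to -0.0291 and -0.0298 on these scales. *Mettl4* ranged from -7.58 to -3.14, the latter on log2(TPM + 1), and it was not tested where 10 counts were required in every library. A fit without 1 library takes the spread from the other group's pair, so its counts of calls do not show what that library holds. The cause of the other changes was not tested. Depth limits the size of the *Mettl4* fold change, which rests on 4 counts a library.

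With an adjusted p below 0.01 and a fold above 2, 1202 genes were higher and 1686 lower, against 297 and 920 on log2(TPM + 1) and 533 higher on log2(TPM + 0.1), and 4224 and 4515 at an adjusted p under 0.05 with no fold threshold. Of the 10 genes, 0 were higher and 1 lower (6.28% and 8.81% of all tested genes). At an adjusted p under 0.05 alone 3 were higher and 2 lower, where 4224 and 4515 of the 19148 tested genes were. With at least 10 counts in every library 0 were lower. By adjusted p alone 2 were higher and 2 lower (13.1% and 15.4% of all tested genes), against 0 higher on both TPM scales, 1 lower on log2(TPM + 1), with upper-quartile normalisation and with at least 10 counts in every library, and between 1 and 4 higher and 1 and 3 lower with each library left out.

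Of the 33 other genes, 0 were higher and 1 lower with a fold over 2 (6.28% and 8.81% of all tested genes). At an adjusted p under 0.05 alone 7 were higher and 8 lower, where 4224 and 4515 of the 19148 tested genes were. With DESeq2, with its size factors, with no filter and with at least 10 counts in every library, 2 were lower. On log2(TPM + 1) 3 were lower and on log2(TPM + 0.1) 5. By adjusted p alone 4 were higher and 5 lower, against 0 higher on both TPM scales, and 0 to 9 higher and 3 to 10 lower with each library left out.

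Equal replicate numbers are not said to mark a shared batch. Same-numbered libraries correlated at 0.265 in their deviations, over 2 pairs. A fit with replicate numbers as a block called 1461 genes higher and 1956 lower, and by adjusted p alone 7 of the 33 genes higher and 7 lower and, of the 10 genes, *Wtap* (0.45) too.

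Within 5 Mb on each side the neighbourhood median was -5.17 for *Mettl4*, 0.14 for *Wtap*, -0.0830 for *N6amt1*, 0.43 for *Alkbh1*, -0.45 for *Fto* and -0.18 for *Ythdc1*. Within 1 Mb it was -0.0087 for *Mettl3*, -0.21 for *Wtap* and 0.0368 for *Ythdc1*. Of the 5 genes most like *Mettl4*, 3 were among them with a pseudocount of 1.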
